A study of Mus musculus with 24 samples.

Results

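Quadriceps muscle of C57BL/6 (B6) mice that carried an extracellular matrix (ECM) implant was compared with B6 quadriceps that carried a polyethylene (PE) implant, across every gene of the deposited matrix that has a symbol. The comparison rests on 6 of the 24 libraries of the series, 3 with ECM and 3 with PE, and on 14159 genes. All mice were female and 6 to 8 weeks old at surgery, when a piece of the quadriceps was cut out (volumetric muscle loss) and the gap was filled with decellularized ECM powder from porcine small intestine, suspended in buffer, or with dry ultra-high-molecular-weight PE powder. Muscle was collected 21 days later, and whole frozen quadriceps gave the poly-A RNA, so the implant, the cells around it and the uninjured fibres were measured together. Fewer cells of a type and less RNA per cell cannot be told apart in such samples. The same injury filled with saline and uninjured quadriceps of B6 mice, 3 libraries each, are given as levels beside the implants. ECM- and PE-treated MRL/MpJ (MRL) mice, an inbred strain known for closing ear wounds with little scar, gave 6 further libraries in which the same contrast was measured. All operated mice had isoflurane and buprenorphine, none of the labels names an engineered allele, and nothing in them gives a batch.

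Decellularized matrix is a degradable scaffold that macrophages enter and remodel, and in muscle it is known for a type 2 response, in which the cytokines IL-4 and IL-13 act through the transcription factor STAT6 and induce genes such as Arg1, Chil3 and Retnla in macrophages. PE cannot be degraded, and a foreign-body reaction forms around its particles, with neutrophils, macrophages laden with debris, fused giant cells and a fibrous capsule. The comparison asks how the tissue around a material that is remodelled differed from that around a material that persists, with the injury and the strain held the same.

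Levels are the deposited log2 CPM (reads scaled to a common library size, on a log2 scale), where a gene with no read stands at -3.65. At the mean effective library size of 25149678 reads, a library with no read of a gene still leaves room for 3 counts (0.119 CPM, which is -2.33 on the log2 scale), a limit that reflects counting error alone. Log2 fold changes are ECM minus PE, so a negative value is higher with PE. They were tested with limma over all 24 libraries, and again over the 12 B6 libraries alone, and genes with an adjusted p (Benjamini-Hochberg over all genes) under 0.05 are referred to as called. The p-values measure the spread between these libraries.

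Some libraries stood apart and bear on what follows. The second PE-treated MRL library had the widest residuals of all 24 libraries, with an SD of 0.973 against 0.311 to 0.633 in the others, and it enters the shared estimate of spread in the 24-library fit. The second PE-treated B6 library had the lowest summed level of 30 muscle fibre genes among the B6 libraries, 89191 CPM, against 172820 and 194480 in the other PE libraries and 164170 to 254350 in the ECM libraries, which overlapped the PE range. The first ECM-treated B6 library had the highest summed level of 18 genes of alternative macrophage activation, 1856.5 CPM, against 291.9 and 518 in the other ECM libraries and 248 to 409 with PE. Muscle markers were high in all 6 libraries. Myh4, the fast myosin heavy chain, stood at 15.75, 15.65 and 15.12 in the ECM libraries and 15.44, 14.50 and 15.47 in the PE libraries, in overlapping ranges.

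In B6 quadriceps at day 21, 32 genes were called between ECM and PE, or 0.226% of those tested, of which 4 were higher with ECM (0.0283%) and 28 higher with PE (0.198%). In the fit of the 12 B6 libraries, 892 genes were called (6.3%), 56 higher with ECM (0.396%) and 836 higher with PE (5.9%), and all 32 genes were among them. Leaving the second PE-treated MRL library out of the 24 gave 1622 calls (11.5%), 360 higher with ECM (2.54%) and 1262 higher with PE (8.91%), again with all 32. In each of these fits most calls were on the PE side. All 892 genes had ECM and PE libraries that did not overlap, a pattern found with ECM higher in 14.6% and with PE higher in 19.5% of all genes. Calls on the PE side ran from -0.60 to -5.98 on the log2 scale, and calls on the ECM side from 0.52 to 6.42. The median over all genes was -0.01. The count depended on single libraries, from 1 without the second PE library to 53 without the third PE library in the 24-library fit, and from 285 without the second ECM library to 1317 without the third PE library in the fit of B6 libraries. Without the second PE library, the fit of B6 libraries gave 343 calls (2.42%), 7 higher with ECM (0.0494%) and 336 higher with PE (2.37%), which included 27 of the 32 genes. Cxcl5, Met, Mmp9 and Mrgprg were among those not kept. The matrix holds only genes above 1 CPM in at least 3 libraries, and 12 of the 32 genes and 74 of the 892 exceeded 0 log2 CPM in fewer than 3 libraries outside the group in which they were higher. They were largely in the matrix through that group and had to differ. The 12 were Asprv1, Cxcl3, Cxcl5, Il1b, Il1f9, Mcoln3, Mrgpra2b, Mrgprg, S100a8, S100a9, Slpi and Vsig8.

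**Figure D1:**
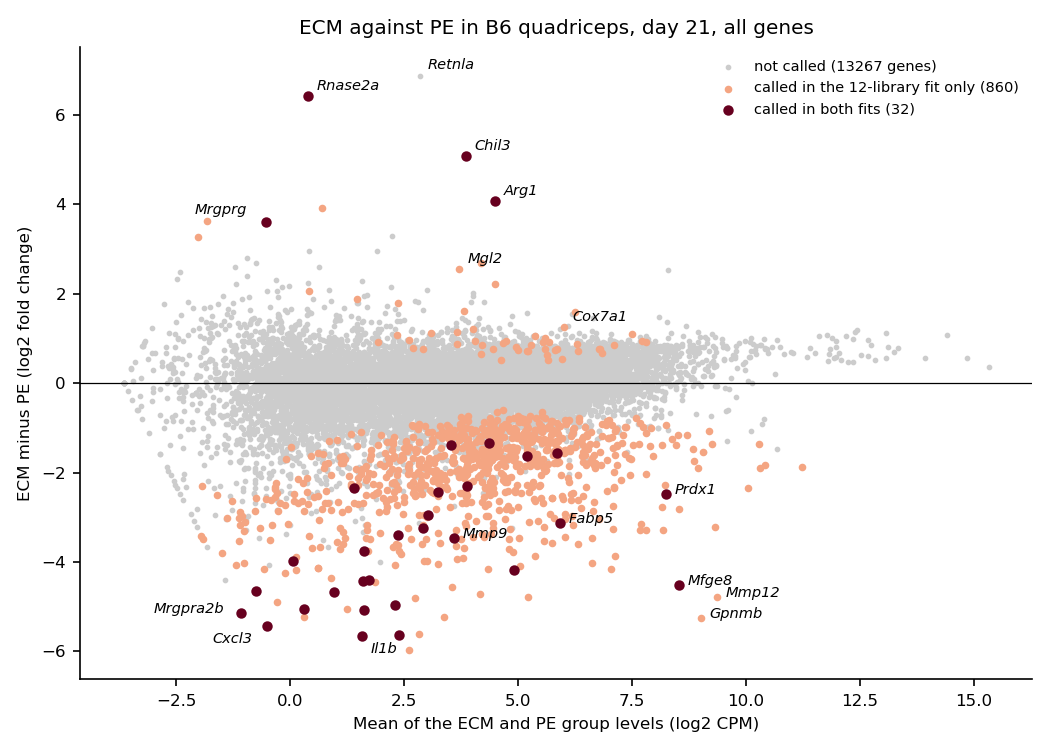
Log2 fold change, ECM minus PE (y axis), against the mean of the ECM and PE group levels in log2 CPM (x axis), for 14159 genes in B6 quadriceps at day 21. Dark points are the 32 genes called in both fits and orange points those called only in the fit of 12 B6 libraries. The orange points lie mostly below 0, where PE was higher, and Rnase2a, Chil3 and Arg1 stand above the other called genes on the ECM side.

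The 4 genes called higher with ECM were Rnase2a, Chil3, Arg1 and Mrgprg. Rnase2a, a member of the eosinophil-associated ribonuclease family that macrophages also express under type 2 cytokines, lies on chromosome 14 from 51492719 to 51493595 (GRCm39). It stood at 5.24, 2.78 and 2.80 in the ECM libraries and -2.27, -3.03 and -3.13 in the PE libraries. All 3 PE libraries were near the level of saline, -2.91 ± 0.30 (mean ± SD, n = 3), and 2 of them were below the level that 3 counts give. The difference was 6.42 on the log2 scale (standard error 0.62, adjusted p = 4.14e-05).

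Chil3, the chitinase-like protein Ym1, lies on chromosome 3 from 106054870 to 106074880 and Arg1, the arginase that takes arginine from nitric oxide synthesis, on chromosome 10 from 24791118 to 24803817. Chil3 stood at 8.91, 4.36 and 5.94 in the ECM libraries and 0.74, 2.62 and 0.62 in the PE libraries, and the highest PE library was below the lowest ECM library. Arg1 stood at 8.51, 5.19 and 5.88 in the ECM libraries and 1.40, 3.77 and 2.19 in the PE libraries, again with no overlap. For both genes the first ECM library was the highest of the 6 and the second PE library the highest of its group. Chil3 was higher with ECM by 5.08 (standard error 0.91, adjusted p = 0.0382) and Arg1 by 4.07 (standard error 0.83, adjusted p = 0.0481). With saline they stood at 0.23 ± 0.30 and 1.07 ± 0.31, so that the ECM libraries were above saline for both genes.

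Mrgprg, a Mas-related G protein-coupled receptor on chromosome 7 from 143317447 to 143320733, was a low transcript. It was among the 12 genes listed above, so its call is not read as a result. It stood at 1.73, 2.12 and -0.07 in the ECM libraries and -3.65, -2.37 and -1.01 in the PE libraries, so every PE library was below every ECM library, and the log2 fold change was 3.60 (adjusted p = 0.0494).

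Retnla, which encodes the secreted protein RELMα and is induced through STAT6, showed the largest difference of all genes on the ECM side and was not called. It stood at 8.50, 4.18 and 6.16 in the ECM libraries and -3.52, 3.87 and -2.14 in the PE libraries. The second PE library lay close below the second ECM library, while the other PE libraries were near or below the level that 3 counts give. The difference of 6.88 had a standard error of 2.52 (adjusted p = 0.15, or 0.0563 in the B6 libraries alone). Without the second PE library it was called in the fit of B6 libraries (adjusted p = 0.019). The study's own analysis reported Retnla as significantly higher with ECM than with PE in B6 mice. The study's printed code holds no contrast of ECM with PE, so the fit behind that result is not shown. The reason why the calls differ was not tested.

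Of 18 measured genes of alternative activation, 2 were called higher with ECM (0.0283% of all genes) and 0 higher with PE, or 3 (0.396%) and 0 in the fit of B6 libraries, where Mgl2 was added. The list median was 0.38, or 0.18 with equal library totals, 0.62 with quantile normalization and 0.66 without the second PE library. Mgl2, a galactose-type lectin of dermal dendritic cells and macrophages, stood at 6.66, 3.64 and 4.63 in the ECM libraries and 2.43, 2.79 and 2.06 in the PE libraries (adjusted p = 0.0601, or 0.0233 in the B6 libraries alone). Its near-identical copy Clec10a, with which reads can be shared, had overlapping groups and a difference of 0.18. Several widely used markers on the list were not called. Mrc1, the mannose receptor, differed by 0.32 (adjusted p = 0.782), Cd163, the haemoglobin scavenger receptor, by 1.45 (adjusted p = 0.174) and Gata3, the transcription factor of type 2 lymphocytes, by 0.44 (adjusted p = 0.803). For all 3 the first ECM library was the highest with ECM, and the groups overlapped. The study's own analysis reported Mgl2 and Cd163 as significantly higher with ECM than with PE in B6 mice.

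Among other immune genes on the ECM side, Ch25h, which makes 25-hydroxycholesterol, stood at 4.92, 1.16 and 1.85 in the ECM libraries and -0.93, -1.25 and -1.63 in the PE libraries, with no overlap (log2 fold change 3.91, adjusted p = 0.0523, or 0.0155 in the B6 libraries alone), and no library of another group reached 0 log2 CPM. Ccl8, a chemokine that draws eosinophils and type 2 T cells, stood at 6.98, 4.29 and 5.57 in the ECM libraries and 3.11, 4.23 and 2.83 in the PE libraries and its lowest ECM library was only just above the highest PE library (adjusted p = 0.188, or 0.0398). Cish, a feedback inhibitor that STAT5 induces, stood at 6.06, 5.08 and 5.45 in the ECM libraries and 1.98, 3.18 and 3.35 in the PE libraries (adjusted p = 0.0786, or 0.0167). These 3 genes were called only in the fit of B6 libraries, and without the second PE library the calls of Ch25h and Mgl2 were lost there (adjusted p = 0.0632 and 0.0661). Ch25h was in the matrix through the ECM libraries alone, so its call is not read as a result. Of 16 resident macrophage genes measured, Ccl8 was called higher with ECM (0.396% of all genes) and Marco higher with PE (5.9%) in the fit of B6 libraries. Marco exceeded 0 log2 CPM in only 1 library outside the PE group, so its call is not read as a result. The median of the 16 genes was 0.00, and -0.20 when libraries were scaled to equal totals.

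The eosinophil list was poorly covered, with 3 of its 12 genes in the matrix. Ear2, an eosinophil-associated ribonuclease, stood at 2.50, 1.44 and 2.74 in the ECM libraries and 1.0, 0.58 and 0.71 in the PE libraries (log2 fold change 1.46, adjusted p = 0.142). Siglecf, the surface lectin by which mouse eosinophils are gated, went the other way, at -0.57, -3.06 and -1.21 in the ECM libraries and 1.67, 2.40 and 0.53 in the PE libraries. Its difference of -3.15 was called only in the fit of B6 libraries (adjusted p = 0.123, or 0.0235). That call was lost without the second PE library (adjusted p = 0.129). Siglecf exceeded 0 log2 CPM in only 1 library outside the PE group, so its call is not read as a result. The study's flow cytometry found more eosinophils with ECM than with PE or control injury in both strains. Transcript levels in whole muscle do not count cells.

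**Figure D2:**
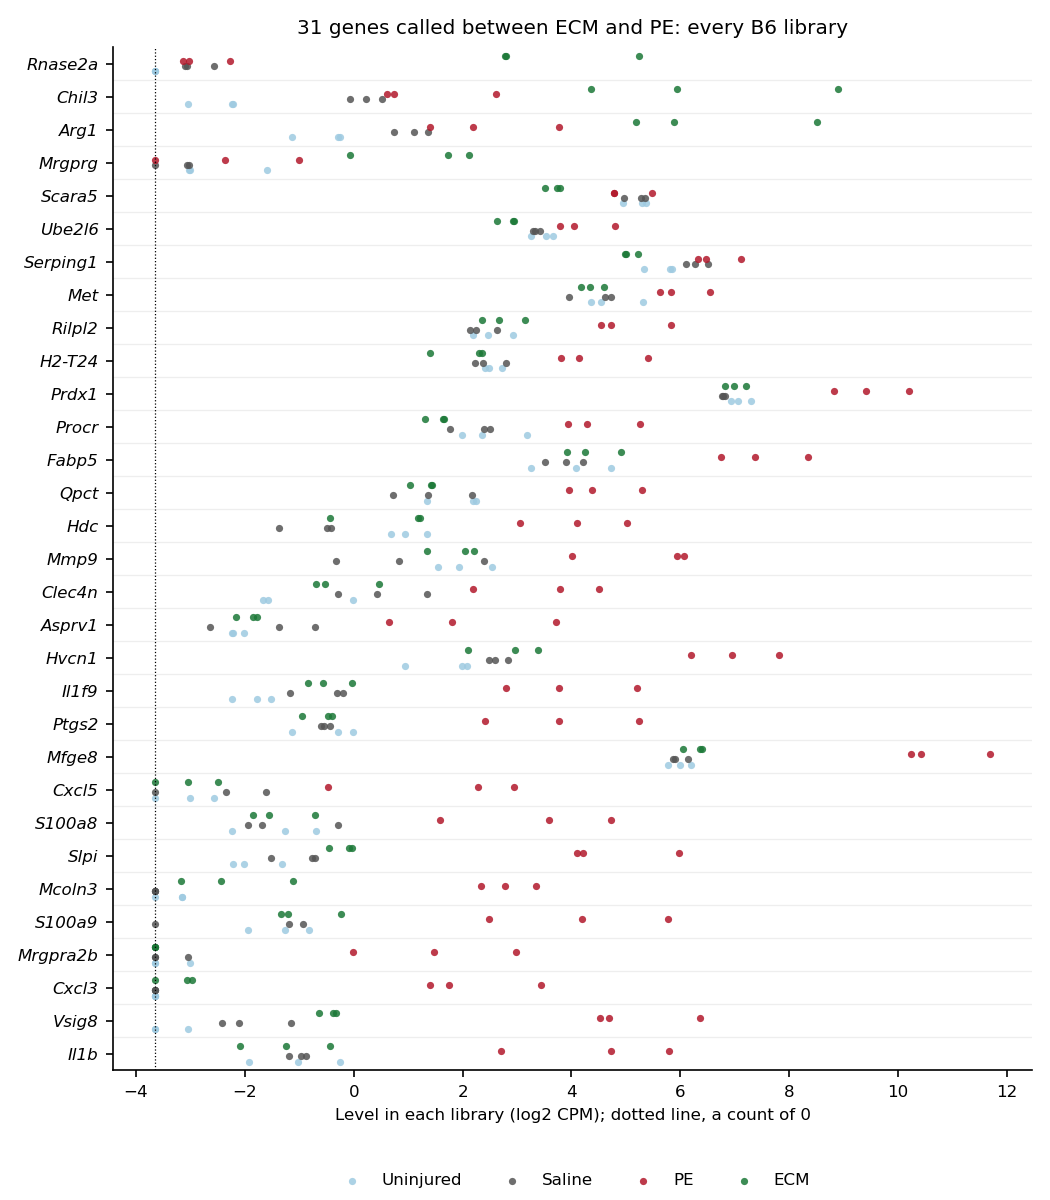
Level in log2 CPM (x axis) of 31 of the 32 called genes (y axis) in each of the 12 B6 libraries, coloured by group; each point is 1 library. The ECM and PE points of a gene never mix, and for Il1b, S100a9 and Mfge8 the ECM points lie near those of saline-treated and uninjured muscle.

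On the PE side several of the largest differences were in genes of neutrophils and of acute inflammation. Among them, Il1b, Cxcl2, Cxcl3, Cxcl5, S100a8, S100a9, Slpi, Il1f9, Asprv1 and Vsig8 were in the matrix largely through the PE libraries. Their levels are given below, and their calls are not read as results. Il1b, the cytokine interleukin-1β, lies on chromosome 2 from 129206490 to 129213059. It stood at -0.43, -2.09 and -1.24 in the ECM libraries and 4.73, 5.79 and 2.71 in the PE libraries. The ECM libraries were near saline, -1.01 ± 0.16, and the lowest PE library was above all of them. The difference was -5.66 on the log2 scale (standard error 1.08, adjusted p = 0.0443).

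Cxcl3 and Cxcl5, chemokines that bind the neutrophil receptor CXCR2, stood apart in the same way. Cxcl3, on chromosome 5 from 90933962 to 90937459, stood at -3.65, -2.97 and -3.07 in the ECM libraries and 1.76, 3.44 and 1.40 in the PE libraries, with ECM libraries below the level of 3 counts (log2 fold change -5.43, adjusted p = 0.0395). Cxcl2, a near-identical copy of Cxcl3, stood at -0.14, -0.09 and -0.92 in the ECM libraries and 5.28, 7.01 and 4.49 in the PE libraries, and its difference of -5.98 was called only in the B6 libraries (adjusted p = 0.0707, or 0.00507). How reads were divided between these copies cannot be seen in the matrix. Cxcl5 was higher with PE by a log2 fold change of -4.64 (adjusted p = 0.0481), and the third PE library, at -0.48, was well below the others.

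S100a8 and S100a9 encode the subunits of calprotectin, an abundant cytosolic protein of neutrophils. S100a9 stood at -1.20, -0.23 and -1.33 in the ECM libraries and 4.20, 5.78 and 2.48 in the PE libraries (log2 fold change -5.07, adjusted p = 0.0481). S100a8 stood at -1.57, -0.72 and -1.86 in the ECM libraries and 3.59, 4.73 and 1.59 in the PE libraries (log2 fold change -4.68, adjusted p = 0.0443). The second PE library was highest and the third lowest for both. Ptgs2, the inducible cyclooxygenase, stood at -0.94, -0.40 and -0.48 in the ECM libraries and 3.76, 5.25 and 2.42 in the PE libraries, a difference of -4.42 (standard error 0.72, adjusted p = 0.0294), and its ECM libraries were near saline, -0.53 ± 0.09.

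Further genes called on the PE side in both fits included Slpi, the leukocyte protease inhibitor (-4.96, adjusted p = 0.0476), and Il1f9, which encodes IL-36γ (-4.40, adjusted p = 0.0476). Mmp9, the gelatinase stored in neutrophil granules, stood at 2.04, 1.35 and 2.20 in the ECM libraries and 5.94, 6.07 and 4.0 in the PE libraries and differed by -3.47 (adjusted p = 0.0481). Hdc, which makes histamine and marks mast cells, basophils and neutrophils, differed by -3.41 (adjusted p = 0.037), while none of the other 7 mast cell and basophil genes was called in either fit. Clec4n, the fungal receptor Dectin-2, differed by -3.75 and Asprv1, an aspartic protease, by -3.98. The immunoglobulin-domain gene Vsig8 stood at -0.37, -0.32 and -0.65 in the ECM libraries and 4.53, 6.37 and 4.69 in the PE libraries, a difference of -5.64 (adjusted p = 0.0481). Mrgpra2b, a Mas-related receptor, was listed at 0 in all 3 ECM libraries and stood at 1.47, 2.99 and -0.01 with PE. No library of another group reached a level of 0 log2 CPM, so the gene was in the matrix through the PE libraries alone, its call is not read as a result, and no fold is given against a group at 0.

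Of 13 measured neutrophil genes, 3 were called higher with PE (0.198% of all genes) and 0 higher with ECM, or 8 (5.9%) and 0 in the fit of B6 libraries. Their median was -3.34, and 10 of the 13 had PE libraries entirely above ECM libraries, against 19.5% of all genes. For 5 of the 13, fewer than 3 libraries outside the PE group exceeded 0 log2 CPM, so that the filter on low values favours differences in this list. The neutrophil receptor Cxcr1 was at or below the level of 3 counts in every ECM library and stood at 0.27, 2.10 and 0.21 with PE. The other 3 overlapped. Lcn2, a granule protein that other cells also make, stood at 4.57, 3.79 and 4.55 in the ECM libraries and 4.09, 4.57 and 4.27 in the PE libraries, and at -1.90, -1.64 and 4.72 with saline. The summed level of the list was 225, 449 and 112 CPM with PE and 43.4, 30.3 and 43.1 CPM with ECM. Ly6g, Mpo and Elane, which define neutrophils or their precursors, were among the 9 list genes not in the matrix.

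Of 23 measured genes of inflammatory macrophages and cytokines, 3 were called higher with PE (0.198% of all genes), or 13 in the fit of B6 libraries (5.9%), and 0 higher with ECM in either. The median was -3.01. Tnf, Irg1 and others, 9 of the 23, exceeded 0 log2 CPM in fewer than 3 libraries outside the group in which they were higher. Their calls are not read as results, and the filter on low values favours differences in this list. Tnf stood at -1.28, -1.67 and -0.60 in the ECM libraries and 2.66, 3.34 and 1.45 in the PE libraries (adjusted p = 0.0601, or 0.00535). Irg1, whose enzyme makes itaconate in activated macrophages, differed by -5.60 (adjusted p = 0.0743, or 0.00321), and Il1rn, the interleukin-1 receptor antagonist, by -4.57 (adjusted p = 0.0926, or 0.00268), so the cytokine and its antagonist were on the same side. Ccl2, the monocyte chemokine, had overlapping groups and a difference of -0.85 (adjusted p = 0.477). Nos2, the inducible nitric oxide synthase that competes with arginase for arginine, stood at 2.0, 1.03 and 1.77 in the ECM libraries and 0.12, -0.91 and 0.49 in the PE libraries, with every ECM library above every PE library and a difference of 1.70 that was not called (adjusted p = 0.146, or 0.0998).

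A second block on the PE side held genes of macrophages that have taken up lipid or debris, of macrophage fusion and of the lysosome. Mfge8, which bridges dying cells to phagocytes and lies on chromosome 7 from 78783515 to 78798825, stood at 6.41, 6.05 and 6.36 in the ECM libraries and 10.43, 11.70 and 10.23 in the PE libraries. With PE it was the most abundant of the 28 genes, and its ECM libraries were near saline, 5.98 ± 0.15. The difference was -4.51 on the log2 scale (standard error 0.80, adjusted p = 0.037). Fabp5, a fatty acid binding protein, stood at 4.26, 3.91 and 4.92 in the ECM libraries and 7.38, 8.34 and 6.75 in the PE libraries (log2 fold change -3.13, adjusted p = 0.037). A near-identical copy of it, Gm6166, was on average below the level of 3 counts in both groups. Mcoln3, an endolysosomal cation channel, stood at -3.17, -2.43 and -1.11 in the ECM libraries and 2.78, 3.35 and 2.34 in the PE libraries (log2 fold change -5.06, adjusted p = 0.0396), and Hvcn1, the proton channel of phagocytes, at 2.96, 2.09 and 3.39 in the ECM libraries and 6.96, 7.81 and 6.19 in the PE libraries (log2 fold change -4.17, adjusted p = 0.0443). Mcoln3 was in the matrix largely through the PE libraries, and its call is not read as a result.

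Gpnmb and Mmp12 reached the highest PE levels among genes with differences of this size. Gpnmb, a glycoprotein of lipid-laden macrophages, stood at 6.58, 5.82 and 6.74 in the ECM libraries and 11.36, 12.54 and 11.01 in the PE libraries, and the saline mean was 4.89 ± 0.12. Its difference of -5.26 was called only in the fit of B6 libraries (adjusted p = 0.0944, or 0.00118). Mmp12, the macrophage elastase, stood at 7.56, 6.16 and 7.20 in the ECM libraries and 11.57, 12.60 and 11.11 in the PE libraries against 4.57 ± 0.17 with saline, so it was above saline with both materials (adjusted p = 0.184, or 0.0104). Its call in the B6 libraries was lost without the second PE library (adjusted p = 0.0578).

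Of 16 genes of lipid-associated macrophages, 1 was called higher with PE in the 24-library fit (0.198% of all genes) and 12 in the fit of B6 libraries (5.9%), with a median of -2.73. Trem2, the lipid receptor of these cells, stood at 5.98, 3.55 and 5.38 in the ECM libraries and 7.69, 8.64 and 6.99 in the PE libraries, and Spp1, osteopontin, at 7.19, 5.48 and 5.43 in the ECM libraries and 9.55, 10.15 and 8.26 in the PE libraries (adjusted p = 0.0138 and 0.00904 in the B6 libraries alone, 0.222 and 0.263 over 24 libraries). Both were above their saline means of 2.43 ± 0.39 and 3.33 ± 0.94 with either material. Plin2, the lipid droplet coat protein, differed by -1.99 and was called in the B6 libraries alone, whereas Lpl, Apoe and Fabp4 had overlapping groups, at -1.55, -1.30 and 0.82. Of 17 fusion and osteoclast-type genes, 1 and 8 were called higher with PE, against 0.198% and 5.9% of all genes, with a median of -2.03. The 8 included Dcstamp, a protein required for macrophage fusion (-0.15, -0.51 and 0.77 in the ECM libraries and 3.48, 3.85 and 2.64 in the PE libraries), Atp6v0d2 (-3.58) and the collagenolytic cathepsin Ctsk (-2.76). For 3 of the 17, fewer than 3 libraries outside the group in which they were higher exceeded 0 log2 CPM. Dcstamp and Mcoln3, the gene called over 24 libraries, were among these, so their calls are not read as results. Without the second PE library, 8 lipid-associated and 5 fusion genes were called in the B6 libraries, against 2.37% of all genes. The calls of Trem2, Plin2 and Dcstamp were lost (adjusted p = 0.0746, 0.0905 and 0.0631).

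All 12 pan-macrophage genes had PE libraries entirely above ECM libraries, against 19.5% of all genes. In the 24-library fit 0 were called, and 8 in the fit of B6 libraries (5.9% of all genes). With the second PE library left out, 4 were called there (2.37% of all genes). Cd68, a lysosomal protein used to mark macrophages, stood at 5.42, 3.49 and 4.96 in the ECM libraries and 7.66, 8.72 and 6.99 in the PE libraries (log2 fold change -3.17, adjusted p = 0.106, or 0.0043). Emr1, which encodes the F4/80 antigen, stood at 5.42, 3.47 and 5.0 in the ECM libraries and 6.30, 7.34 and 5.79 in the PE libraries and was called in neither fit (adjusted p = 0.173, or 0.0538). The integrin subunit Itgam, CD11b, differed by -3.45 and Csf1r, the receptor for the growth factor CSF1, by -2.05, a call that was lost without that library (adjusted p = 0.0905). Lyz2, the macrophage lysozyme, differed by -3.22, together with its near-identical copy Lyz1. The summed level of the 12 genes was 2952, 5440 and 1509 CPM with PE, 485, 203 and 524 CPM with ECM and 233 to 301 CPM with saline.

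Lysosomal genes differed by less per gene. Of 31 measured, 17 were called higher with PE in the fit of B6 libraries, against 5.9% of all genes, and 0 in the 24-library fit. The PE libraries of 26 were entirely above the ECM libraries, against 19.5% of all genes, and the median was -1.35. Leaving out the second PE library gave 6 calls in the B6 libraries, against 2.37% of all genes. Psap, the precursor of the saposins, stood at 10.46, 9.97 and 10.46 in the ECM libraries and 11.95, 12.91 and 11.64 in the PE libraries and the cathepsin Ctsb at 9.76, 8.95 and 9.79 in the ECM libraries and 11.20, 12.10 and 10.72 in the PE libraries, so the PE libraries were above the ECM libraries at these high levels. Of 15 Fc and paired immune receptors, 12 were called higher with PE in the B6 libraries (5.9% of all genes) and 1, Clec4n, also over 24 libraries (0.198%), with a median of -2.43. Of 16 genes of iron and heme handling, 6 were called higher with PE in the B6 libraries alone, against 5.9% of all genes. Among the 6 were the ferritin light chain Ftl1 (8.93, 8.34 and 9.35 in the ECM libraries and 11.09, 12.08 and 10.51 in the PE libraries) and heme oxygenase Hmox1 (4.25, 3.16 and 3.58 in the ECM libraries and 5.72, 6.74 and 4.96 in the PE libraries).

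Among the other genes called on the PE side in both fits, Prdx1, an antioxidant peroxidase, stood at 6.81, 6.99 and 7.22 in the ECM libraries and 9.41, 10.21 and 8.82 in the PE libraries (log2 fold change -2.47, adjusted p = 0.0481), and Procr, the protein C receptor, differed by -2.95 (adjusted p = 0.037). Qpct, which cyclizes the ends of chemokines, differed by -3.25 and Rilpl2, a regulator of membrane traffic, by -2.31.

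**Figure D3:**
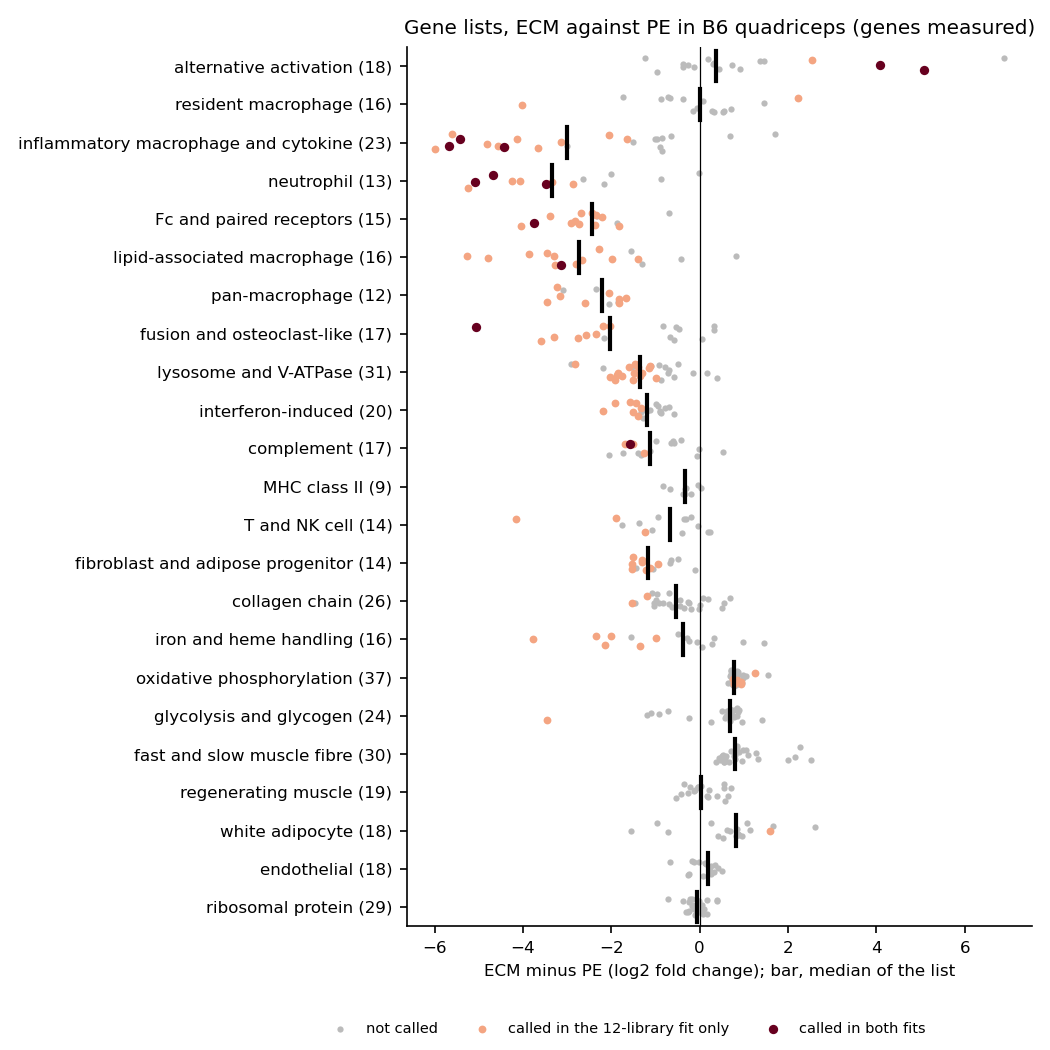
Log2 fold change, ECM minus PE (x axis), of each measured gene of 23 lists (y axis, number of genes in parentheses) in B6 quadriceps; bars are list medians and colours mark calls. Neutrophil, inflammatory, lipid-associated and pan-macrophage genes lie mostly left of 0, while oxidative phosphorylation and muscle fibre genes have medians of 0.79, a value that for the muscle fibre genes was 0.37 with quantile normalization.

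Promoter sequence is shown for a gene of each side, because STAT6 and AP-1 are factors well known for inducing type 2 genes and matrix proteases. The 250 bases before the start of the main transcript of Retnla (chr16:48662645-48662894, plus strand, GRCm39), Mmp12 (chr9:7347124-7347373, plus strand) and Mmp9 (chr2:164789889-164790138, plus strand) are given 5′ to 3′, with matches to TTC and GAA separated by 4 bases (STAT6-type) or TGANTCA (AP-1-type) in capitals.
Retnla: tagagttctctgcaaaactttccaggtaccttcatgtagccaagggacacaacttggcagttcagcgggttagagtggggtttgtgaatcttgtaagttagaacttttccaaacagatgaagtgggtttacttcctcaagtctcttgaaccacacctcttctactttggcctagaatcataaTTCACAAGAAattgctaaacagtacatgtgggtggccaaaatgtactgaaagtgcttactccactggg
Mmp12: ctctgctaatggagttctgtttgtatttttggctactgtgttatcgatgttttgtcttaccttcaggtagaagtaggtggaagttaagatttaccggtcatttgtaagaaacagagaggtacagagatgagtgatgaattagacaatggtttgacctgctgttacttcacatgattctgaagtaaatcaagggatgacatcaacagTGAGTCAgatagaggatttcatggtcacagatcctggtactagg
Mmp9: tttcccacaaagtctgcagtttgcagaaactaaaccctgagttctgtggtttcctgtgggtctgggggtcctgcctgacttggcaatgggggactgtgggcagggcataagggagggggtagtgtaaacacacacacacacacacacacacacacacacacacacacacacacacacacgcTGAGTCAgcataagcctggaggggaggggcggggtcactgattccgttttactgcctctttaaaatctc
The Retnla window holds a STAT6-type match at position -68 relative to the start, and the Mmp12 and Mmp9 windows hold an AP-1-type match at -44 and -69. Of the 4 genes called higher with ECM over 24 libraries, Chil3 and Rnase2a hold neither in their windows, Arg1 holds an AP-1-type match at -241 and no STAT6-type match, and Mrgprg holds a STAT6-type match at 1. Il1b holds neither. Over windows from 250 bases before to 50 bases after the start, STAT6-type matches were in 5.94% of 13744 promoters, in 5.36% of the 56 genes called higher with ECM in the B6 libraries and in 5.64% of the 815 windows of genes called higher with PE. AP-1-type matches were in 5.56%, 8.93% and 7.61%. Both motifs read the same on either strand. A match describes letters only, and no test was made of it.

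Of the interferon-induced genes, all 20 were higher with PE, 12 without overlap (19.5% of all genes), 7 were called in the B6 libraries (5.9% of all genes) and 0 over 24 libraries, and the median was -1.19. Leaving out the second PE library gave 2 calls in the B6 libraries, against 2.37% of all genes. Oas1a, a sensor of double-stranded RNA, stood at 2.23, 2.12 and 2.23 in the ECM libraries and 3.98, 5.48 and 3.65 in the PE libraries (adjusted p = 0.105, or 0.0093). Ube2l6, which attaches the interferon-induced ISG15, was called in both fits (-1.37, adjusted p = 0.0443), as was H2-T24, a non-classical MHC class I gene (-2.43, adjusted p = 0.0481). The classical gene H2-D1 differed by -1.74 and was called in the B6 libraries alone. It has near-identical copies, H2-K1 among them. MHC class II genes, which mark antigen presentation, showed no call among 9 in either fit and a median of -0.32. Cd74, their invariant chain, stood at 8.12, 7.20 and 8.24 in the ECM libraries and 8.20, 8.67 and 7.66 in the PE libraries, in overlapping ranges.

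Complement genes gave 1 call over 24 libraries and 4 in the B6 libraries, of 17, all higher with PE (0.198% and 5.9% of all genes). Serping1, the C1 inhibitor, was called in both and stood at 5.01, 4.98 and 5.22 in the ECM libraries and 6.47, 7.11 and 6.32 in the PE libraries. Here the saline libraries, 6.29 ± 0.20, overlapped the PE libraries, and the ECM libraries were below both. The T and NK cell list gave 0 calls over 24 libraries and 3 of 14 in the B6 libraries (5.9% of all genes), led by Il7r, the interleukin-7 receptor, at 2.80, 1.63 and 2.33 in the ECM libraries and 6.12, 7.29 and 5.83 in the PE libraries. The defining genes of the CD3 complex (Cd3d, Cd3e and Cd3g) overlapped between the materials, and without the second PE library 0 of the 14 were called. B and plasma cell, dendritic cell and endothelial lists gave 0 calls of 7, 10 and 18 genes in both fits.

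Fibroblast and matrix genes differed by less. Of 14 fibroblast and adipose progenitor genes, all were higher with PE, 12 without overlap (19.5% of all genes), 8 were called in the B6 libraries (5.9% of all genes) and 0 over 24 libraries, with a median of -1.17. Pdgfra, the receptor that marks these cells, stood at 4.82, 4.06 and 4.40 in the ECM libraries and 5.60, 5.99 and 5.60 in the PE libraries with a saline mean of 5.47 ± 0.41, and Lum, a collagen-binding proteoglycan, at 5.10, 5.57 and 6.31 in the ECM libraries and 7.18, 7.60 and 6.80 in the PE libraries. Scara5, a ferritin receptor of such cells, was called in both fits. It stood at 3.80, 3.74 and 3.51 in the ECM libraries and 4.78, 5.49 and 4.79 in the PE libraries, and the saline libraries, 5.20 ± 0.21, overlapped the PE libraries. Met, the receptor for hepatocyte growth factor, was also called in both fits (-1.63, adjusted p = 0.0476), with ECM in the range of saline, 4.43 ± 0.42. When the second PE library was left out, 3 of the 14 fibroblast genes were called in the B6 libraries (2.37% of all genes). The calls of Pdgfra and Lum were then lost (adjusted p = 0.0773 and 0.129).

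Of 26 collagen chains, 2 were called higher with PE in the B6 libraries, where 5.9% of all genes were, and 0 over 24 libraries (median -0.54). With the second PE library left out, 0 were called. Col1a1 stood at 9.93, 9.59 and 10.17 in the ECM libraries and 10.57, 11.21 and 10.67 in the PE libraries. The PE libraries were above the ECM libraries without a call in either fit (log2 fold change -0.92, standard error 0.73, adjusted p = 0.483, or 0.147). Col3a1 differed by -1.47 (adjusted p = 0.21, or 0.0594). Acta2, the smooth muscle actin of myofibroblasts, stood at 4.80, 5.29 and 4.92 in the ECM libraries and 4.65, 4.93 and 5.40 in the PE libraries, a difference of 0.01 with a standard error of 0.35. Among 24 matrix proteases and inhibitors, 1 was called over 24 libraries, Mmp9 (0.198% of all genes), and 6 in the B6 libraries (5.9%). Without the second PE library 2 were called in the B6 libraries (2.37%). All of these were higher with PE. Mmp13, a collagenase, stood at 5.61, 3.39 and 5.95 in the ECM libraries and 3.13, 3.83 and 2.16 in the PE libraries against -0.82 ± 0.48 with saline. It was above saline with both materials, and its groups overlapped.

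Genes of muscle metabolism were among the small differences on the ECM side of the fit of B6 libraries. Of 37 genes of oxidative phosphorylation, all were higher with ECM, 36 without overlap against 14.6% of all genes, and 7 were called in the B6 libraries against 0.396% of all genes (0 over 24 libraries). Their log2 fold changes ran from 0.65 to 1.54, with a median of 0.79. Cox7a1, the muscle form of a cytochrome oxidase subunit, stood at 6.44, 6.88 and 6.59 in the ECM libraries and 5.62, 4.61 and 5.91 in the PE libraries (log2 fold change 1.26, adjusted p = 0.116, or 0.0326). The ECM libraries were in the range of saline, 6.64 ± 0.40, and the second PE library was lowest. The growth factor genes Vegfa (1.10, adjusted p = 0.0349 in the B6 libraries) and Vegfb (1.02, adjusted p = 0.0188) were also lowest in the second PE library. Without the second PE library the median of the respiratory genes was 0.55, 0 of the 37 were called, and Vegfa and Vegfb were not called (adjusted p = 0.162 and 0.0853).

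Of the 30 muscle fibre genes, 2 had every ECM library above every PE library, against 14.6% of all genes. The 30 genes had a median of 0.79, with 0 calls in either fit. With quantile normalization their median was 0.37, while that of the respiratory genes stayed at 0.79, and it was 0.38 without the second PE library. Des, the intermediate filament desmin, stood at 11.30, 11.60 and 11.12 in the ECM libraries and 10.89, 9.91 and 11.11 in the PE libraries. Regenerating muscle genes, such as embryonic myosins, had a median of 0.04 and 0 calls of 19. The second PE library had both the lowest muscle fibre sum and the highest macrophage and neutrophil sums of the 6 libraries. The part of tissue composition in these differences was not tested. The medians of the neutrophil, pan-macrophage and lipid-associated lists without that library were -2.60, -1.91 and -2.32.

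**Figure D4:**
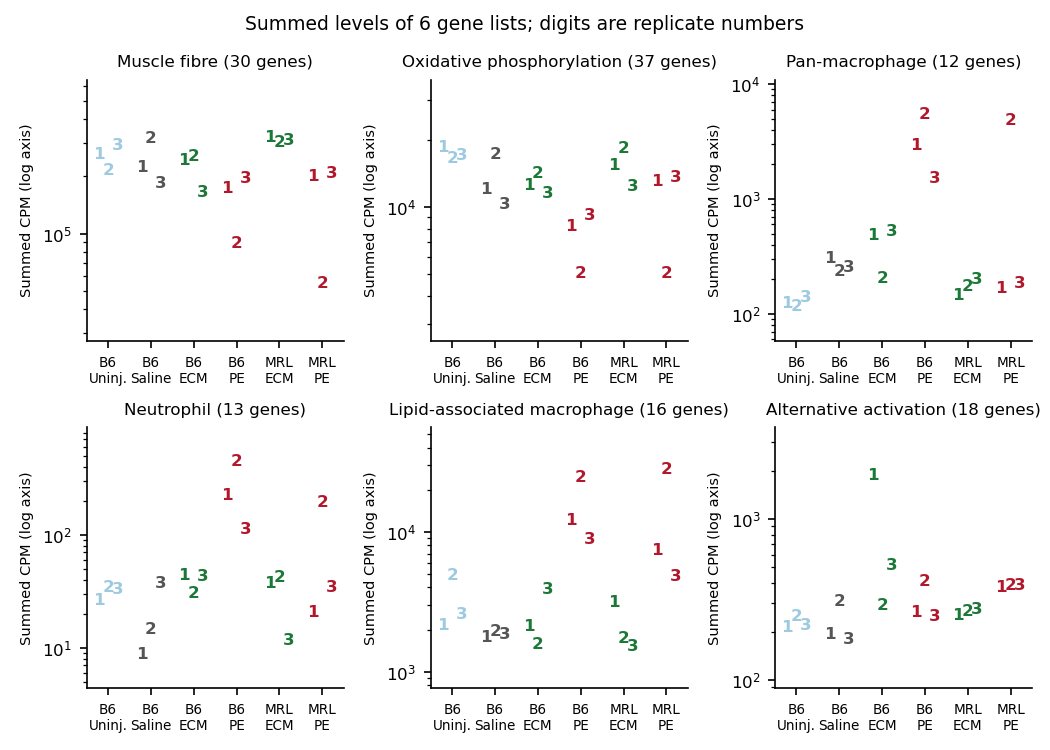
Summed CPM (y axis, log scale) of 6 gene lists in each library of 6 groups (x axis); digits are replicate numbers. In B6 mice the macrophage, neutrophil and lipid-associated sums of every PE library exceed those of every ECM library, and in MRL mice the second PE library alone reaches that level for macrophages.

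Slc26a10, a putative anion transporter, was listed at 0 in all 3 PE libraries and stood at -1.0, -0.25 and 0.13 with ECM and 0.86, 1.89 and 0.95 with saline; it was called in the B6 libraries alone (adjusted p = 0.00225). Among 28 genes called on the PE side over 24 libraries, 22 had an ECM mean within 1 log2 unit of the saline mean. In the fit of B6 libraries this held for 716 of 836. Of the 56 genes called on the ECM side there, 38 had a PE mean within 1 log2 unit of the saline mean, and in 43 every PE library was below every saline library. In 2 of the 4 genes called higher with ECM over 24 libraries, every PE library was above every saline library. The share of all genes that lie so against saline was not computed, so these counts are not read as a trait of the called genes.

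Of 29 genes drawn from the text of the study, 2 were called over 24 libraries (Arg1 and Chil3), and 11 in the B6 libraries, 3 higher with ECM and 8 higher with PE (0.396% and 5.9% of all genes). The 8 were Cd68, Marco, H2-D1, Myo1f, Ctsb, Plin2, Vav1 and Rac2. In the B6 libraries without the second PE library 7 were called, 3 higher with ECM and 4 higher with PE (0.0494% and 2.37% of all genes). The calls of Vav1, Plin2, H2-D1 and Ctsb were lost (adjusted p = 0.174, 0.0905, 0.107 and 0.0511). On the ECM side the call of Mgl2 was also lost, and Retnla was called in its place. Marco, a scavenger receptor, was below the level of 3 counts in each ECM library and stood at 0.26, 2.93 and -0.18 with PE. It exceeded 0 log2 CPM in only 1 library outside the PE group, so its call is not read as a result. Myo1f, a myosin of leukocytes, differed by -3.53, Rac2, the GTPase of the phagocyte oxidase, by -2.98 and Vav1, its exchange factor, by -1.88. Adam8, a protease of leukocytes, overlapped (-1.72, adjusted p = 0.411), as did Col4a1 (-0.45). Thbs1, thrombospondin-1, differed by -0.85, the mechanosensitive channel gene Piezo1 by -0.64, the mitophagy kinase gene Pink1 by 0.80 and the transcription factor gene Maf by 0.56, without overlap and without a call in either fit. C1qb, of the first complement component, differed by -1.40 in the same manner.

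The contrast of ECM and PE was also measured in MRL mice, in libraries that the B6 comparison does not use. No gene was called there (0 of 14159, with 4022 at an unadjusted p under 0.05), and none was called for a difference between the strains (0, with 522 unadjusted). Of the 28 genes higher with PE in B6 mice, 28 were also higher with PE in MRL mice, as were 830 of the 836 in the fit of B6 libraries (99.3%), against 55.1% of all genes. This rested on the second PE-treated MRL library. Without it the numbers were 17 of 28 and 588 of 836 (70.3%), against 49.7% of all genes, and the median log2 fold change of the 836 genes was -0.27 in MRL mice against -1.81 in B6 mice. In that setting 269 genes (1.9%) were called for the difference between strains, 67 toward ECM in B6 mice (0.473%) and 202 toward PE (1.43%).

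Single genes show this. Il1b stood at -0.56, -1.48 and -3.65 with ECM and -1.64, 3.08 and -2.61 with PE in MRL mice, so only the second PE library was high. Mfge8 stood at 6.03, 5.67 and 6.03 with ECM and 6.05, 10.99 and 6.0 with PE, with the other PE libraries at the ECM level, and Gpnmb at 4.96, 3.53 and 5.28 with ECM and 1.94, 12.63 and 5.69 with PE. Hvcn1 and Fabp5 differed without overlap, with all 3 PE libraries above the ECM libraries. Fabp5 stood at 2.70, 1.56 and 2.45 with ECM and 4.13, 6.04 and 3.62 with PE.

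On the ECM side, Rnase2a stood at 1.13, 1.26 and 2.09 with ECM and -1.35, -0.87 and -0.59 with PE in MRL mice, a difference of 2.43 without overlap (adjusted p = 0.0561), and Mrgprg at 1.96, 2.15 and -0.08 with ECM and -3.65, -2.41 and -2.09 with PE, a difference of 4.06 (adjusted p = 0.0558). Arg1 had overlapping groups there (0.97). Chil3 was low with both materials, at -3.65, -3.01 and -1.58 with ECM and -2.10, 0.37 and -1.87 with PE. Its difference between strains was 6.63 (standard error 1.29), with the smallest unadjusted p of all genes, 5.57e-05, and an adjusted p of 0.788, or 0.0236 without the second PE-treated MRL library. Cish also had estimates of opposite sign, at 2.70 in B6 and -1.42 in MRL mice (adjusted p of the difference 0.997, or 0.00479).

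**Figure D5:**
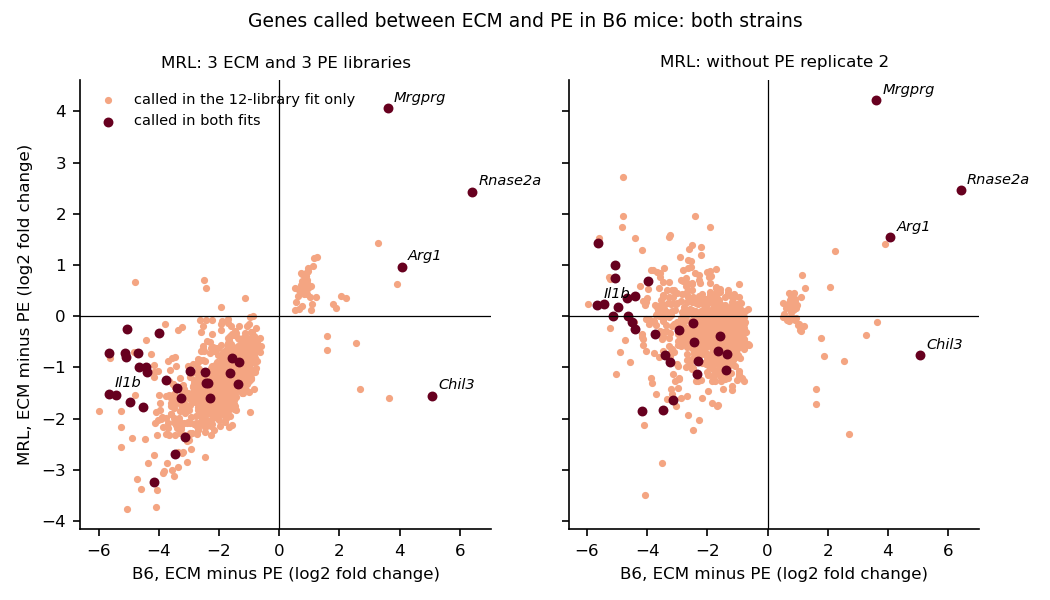
Log2 fold change, ECM minus PE, in MRL mice (y axis) against B6 mice (x axis) for the 892 genes called in B6 mice, with all MRL libraries (left) and without the second PE library (right). On the left nearly all points on the PE side lie below 0 in MRL mice, and on the right their median is -0.27.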

How the data were processed

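Bulk poly-A RNA of quadriceps was sequenced in 24 libraries, 3 per group. The authors quantified reads with kallisto against the GRCm39 cDNA, summed them to genes with tximport (length-scaled TPM), kept genes above 1 CPM in at least 3 libraries, applied edgeR's TMM scaling and deposited log2 CPM with a prior count of 2. Versions of these tools are not given in the sources used here. Because the values are not counts, no count model was fitted.

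Groups came from the labels. Log2 CPM was compared with limma 3.58.1 in R 4.3.3 (1 coefficient per group, empirical Bayes with a trend, 2-sided, Benjamini-Hochberg over 14159 genes) over all 24 libraries, and over the 12 B6 libraries as an alternative. The study's printed code used voom on counts with contrasts between strains only, so the fit behind its comparison of ECM with PE is not shown. The procedure was tested on simulated data. 1 row without a symbol was left out. Lists were described by counts and medians. The members and the 42 lists were chosen with earlier results of these data known. Named genes were the 12 largest called, non-overlapping differences each way without predicted symbols, up to 3 called or else the 2 most abundant genes per list, 29 genes from the study's text and the 5 smallest interaction p-values. Most remaining genes among the 32 called were added (1 is not reported here), and Atp6v0d2, Ccl8, Ch25h, Clec10a, Cox7a1, Ctsk, Cxcl2, Cxcr1, Dcstamp, Gpnmb, Hmox1, Il1rn, Irg1, Itgam, Lcn2, Lum, Mmp12, Mmp13, Nos2, Oas1a, Pdgfra, Plin4, Siglecf, Slc26a10, Spp1, Tnf, Trem2 and Vegfb were chosen after their values were seen.

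Positions came from GENCODE on GRCm39 (13100 symbols by current and 657 by older name, 402 unmatched). Copies were matched with BLAST 2.17.0 at 90% identity over 50% of the shorter transcript. Figures used Python 3.11.15, pandas 2.3.3 and matplotlib 3.10.9. The alternatives tried were values on a log2(CPM + 1) scale, a minimum mean level of 1 log2 CPM, equal totals, quantile normalization, fewer libraries, constant prior variance, library weights, a replicate block and leaving out each library.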

Additional observations from a re-analysis of the deposited data

Results flagged for a closer look

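Pydc4, an interferon-inducible gene, went in opposite directions in the 2 strains without overlap in either. In B6 mice it stood at 2.42, 2.63 and 2.23 in the ECM libraries and 2.89, 3.85 and 2.94 in the PE libraries, and in MRL mice at 1.15, 1.05 and 1.73 with ECM and 0.61, 0.03 and 0.39 with PE. The difference between the strains was -1.77 (standard error 0.42), which the interaction term did not call (adjusted p = 0.997, or 0.0637 without the second PE-treated MRL library). Its near-identical copy Pydc3 can share its reads.

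Hba-a2, an α-globin gene of red cells, was higher with ECM in B6 mice (5.58, 5.57 and 5.70 in the ECM libraries and 4.48, 5.04 and 4.61 in the PE libraries) and higher with PE in MRL mice (4.94, 3.58 and 4.24 with ECM and 7.14, 6.01 and 5.58 with PE). The difference between the strains was 2.90 (adjusted p = 0.997, not called). Its level in uninjured B6 muscle was higher than in any B6 implant library, at 9.51, 8.72 and 9.85, and its near-identical copy is Hba-a1.

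The row of the matrix that carries no gene symbol, which no comparison uses, had a mean log2 CPM of 7.12 ± 0.39 in PE-treated B6 libraries, above all saline libraries (5.70 ± 0.50). It stood at 6.83, 5.67 and 6.37 with ECM and 6.85, 7.57 and 6.94 with PE, so the first ECM library reached the PE level. Which transcripts the row holds cannot be seen from the matrix.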

How the results depend on the processing

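Against the 32 genes called in B6 mice (4 higher with ECM, 28 with PE), the log2(CPM + 1) scale called 121 (7 and 114), a mean log2 CPM of at least 1 called 0 (0 and 0, with 14 of the 32 genes tested), equal library totals 3 (1 and 2), quantile normalization 30 (6 and 24), only the 6 libraries compared 166 (4 and 162), the 12 B6 libraries 892 (56 and 836), constant prior variance 24 (4 and 20), and, added after seeing the data, 23 libraries without the second PE-treated MRL library 1622 (360 and 1262). Library weights called 5579 (2456 and 3123), but their estimation did not converge. Leaving out each library in turn gave 1 to 53 calls (1 to 4 and 0 to 49) over 24 libraries and, added after seeing the data, 285 to 1317 (7 to 197 and 273 to 1120) over the B6 libraries. A group left with 2 libraries was assumed to vary like the others. Of the 32 genes, 0 changed sign under any of these settings. Under most settings none could, because the ECM and PE libraries of these genes did not overlap. Leaving out libraries, changing the estimate of spread or the log2(CPM + 1) scale cannot reverse such genes. Their calls were kept in 32 genes on the log2(CPM + 1) scale, 26 with quantile normalization, 22 with constant prior variance, 20 with only the libraries compared and 1 to 29 without single libraries. With the replicate number as a block, 31 genes were called (2 and 29), 28 of them among the 32. The same-numbered B6 libraries did not deviate together (correlations of 0.033, -0.346 and -0.204), so the numbers were not taken as pairs.

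In MRL mice 26 genes were called on the log2(CPM + 1) scale, 237 with the filter, 717 with equal totals, 8 with quantile normalization, 2311 with weights, 111 with the replicate block, and 0 to 1740 without single libraries. For the difference between strains these were 1 on the log2(CPM + 1) scale, 1886 with weights and 0 to 269 without single libraries.

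Some genes that were not called changed sign. Clec10a stood at -0.026 and Acta2 at -0.20 with equal totals, and Lcn2 stood at 0.13 with quantile normalization and 0.21 with weights. Without single libraries the log2 fold change ran from -0.38 to 0.96 for Mrc1, from -0.12 to 1.31 for Gata3, from -0.15 to 0.61 for Clec10a, from -0.14 to 0.25 for Lcn2, from -0.16 to 0.21 for Acta2 and, with the lowest value without the third ECM library, from -0.049 to 1.43 for Fabp4 and from -0.35 to 2.00 for Scd1. Equal totals moved the median of all genes to -0.21 and quantile normalization to 0.13, and under equal totals the medians of the resident macrophage, B cell, regenerating muscle, endothelial and tendon lists changed sign. The cause of these changes was not tested. With 3 libraries per group, an exact permutation test could not go below p = 0.1, and differences near the level of 3 counts were not resolvable.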

Other observations

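In B6 mice the third ECM library had the highest levels of several adipocyte genes. Scd1, the desaturase of fatty acid synthesis, stood at 7.14, 7.73 and 11.84 in the ECM libraries and 7.26, 8.49 and 7.60 in the PE libraries and Fabp4, the adipocyte fatty acid binding protein, at 6.91, 7.62 and 9.87 in the ECM libraries and 6.77, 7.64 and 7.52 in the PE libraries. The summed level of 18 white adipocyte genes was 4779 CPM in that library, against 1243 and 1461 CPM in the other ECM libraries and 1604 to 2475 CPM with PE. Of these genes 0 were called over 24 libraries and 1, Plin4, in the B6 libraries, where it stood at 6.86, 6.85 and 7.42 in the ECM libraries and 5.09, 5.03 and 6.23 in the PE libraries. That call was lost without the second PE library (adjusted p = 0.162).

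Of the proliferation genes, all 19 were higher with PE, 10 without overlap against 19.5% of all genes, and 1, Pcna, was called, in the B6 libraries alone, where 5.9% of all genes were (5.16, 5.05 and 5.19 in the ECM libraries and 6.26, 6.84 and 5.77 in the PE libraries). The median of the list was -0.86.

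Csn3, a milk protein gene, was above the mean of saline with both materials in B6 quadriceps, at 5.77, 6.31 and 6.27 in the ECM libraries and 5.20, 6.57 and 5.50 in the PE libraries against -2.66, -1.60 and 5.98 in the saline libraries, of which 1 was also high. The materials overlapped (difference 0.36, standard error 2.39).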
